A study of Homo sapiens with 8 samples.

Results

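Ratios of 5 genes, SLC7A11, SRXN1, OSGIN1, FTL and AKR1C3, were followed through the array comparison of HepG2 cells. They were taken as antioxidant and cystine uptake genes under the transcription factor NRF2 and were found by their symbols in the probe annotation. They are 5 of 18819 genes tested and are covered by 6 of 29187 probes, 2 for SLC7A11 and 1 for each of the other 4. The genes were picked for ratios that earlier processing of the same arrays had given. Their own values are therefore a description, without a test.

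HepG2 is an established human hepatoblastoma line used as a stand-in for hepatocytes. The study set the plant terpene alcohol linalool beside the lipid-lowering drug fenofibrate in fat-filled cells, with 3 groups of treated samples, each hybridised against untreated HepG2 cells. The linalool group (2 arrays) was lipid-loaded and then held for 24 h in serum-free medium containing 1 mM linalool. The fenofibrate group (3 arrays) was loaded in the same way and held for 24 h in serum-free medium with 100 µM fenofibrate, a prodrug of an agonist of the nuclear receptor PPARα. The lipid-loaded group (3 arrays) went through the same loading and the same 24 h without serum, but with no compound. Loading, common to the 3 groups, used 400 µM oleate bound to albumin at a ratio of 6.6 for 24 h according to the protocol, whereas the sample labels name palmitate beside oleate. Whether the untreated cells also went without serum is not given in the sources used here.

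NRF2, encoded by NFE2L2, is held down by KEAP1, which marks it for breakdown. When electrophiles or oxidants modify KEAP1, NRF2 accumulates, pairs with small MAF proteins and binds antioxidant response elements near genes for glutathione synthesis, peroxide removal, iron storage and detoxification. SLC7A11 is the transporter subunit of system xc-, which brings in cystine for glutathione, and it is also a known target of ATF4, the factor of the amino acid response. SRXN1 is sulfiredoxin, which repairs over-oxidised peroxiredoxins, and OSGIN1 is a growth inhibitor induced by oxidative stress. FTL is the ferritin light chain, which stores iron with the heavy chain FTH1, and AKR1C3 is an aldo-keto reductase that reduces steroids, prostaglandins and aldehydes.

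SRXN1 and OSGIN1 had the closest ratios of any pair of members, with a root mean square difference of 0.169 on the log2 scale over the 8 arrays. Their promoter windows are therefore shown as examples of members with close ratios. No window was available for SLC7A11. Each window runs from 250 bases before to 50 bases after the gene start in RefSeq (GRCh38.p14). The SRXN1 window is chr20:653151-653450 on the minus strand and the OSGIN1 window is chr16:83952990-83953289 on the plus strand. Capitals mark the AP-1 motif.
SRXN1: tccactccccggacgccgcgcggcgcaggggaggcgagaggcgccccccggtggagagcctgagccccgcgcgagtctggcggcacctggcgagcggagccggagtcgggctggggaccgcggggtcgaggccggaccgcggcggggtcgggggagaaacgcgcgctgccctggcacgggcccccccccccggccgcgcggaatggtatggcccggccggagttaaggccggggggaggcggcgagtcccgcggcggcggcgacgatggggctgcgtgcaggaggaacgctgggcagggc
OSGIN1: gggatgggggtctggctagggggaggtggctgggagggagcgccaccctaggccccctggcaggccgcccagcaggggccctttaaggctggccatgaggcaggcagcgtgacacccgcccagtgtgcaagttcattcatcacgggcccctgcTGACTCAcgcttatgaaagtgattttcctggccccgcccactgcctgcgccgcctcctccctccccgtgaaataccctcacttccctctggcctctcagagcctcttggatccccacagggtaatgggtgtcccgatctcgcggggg
Both strands were searched for the core of the antioxidant response element, TGACNNNGC, and for the AP-1 motif, TGACTCA, which can overlap it. The motifs were chosen after the sequences had been seen. The core was in none of the 5 windows that the table holds for SRXN1, OSGIN1, FTL and AKR1C3 (2 windows for AKR1C3), and 13.3% of all 35116 windows hold it. Sequence outside these windows was not searched, so its absence here does not show that the genes lack the element. TGACTCA was in the OSGIN1 window, on the plus strand with its first base 97 bases before the start, and 4.95% of all windows hold it. The windows had a GC content of 80.0% for SRXN1, 66.0% for OSGIN1, 66.3% for FTL, and 33.7% and 36.7% for the pair of AKR1C3 windows.

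All values are log2 ratios of the 2 channels of an array as deposited, where 1 is a doubling. The treated sample carried Cy3 and the untreated one Cy5 on every array, with no dye swap, so a gene's dye bias stays in its ratio. Which of the channels is the numerator is not given in the sources used here. Positive and negative refer to the sign in the deposited table, and no direction of change in the treated cells is claimed for any gene. Over the 8 arrays the standard deviation across probes was 0.462 to 0.713, widest on lipid-loaded replicate 1. Fenofibrate replicate 3 correlated across genes at r = 0.127 with the mean of the other arrays, against 0.440 to 0.716 for the rest. The ratios carry no level, so the presence of hepatocyte markers in either channel could not be read from them, and in bulk RNA fewer cells of a kind and less RNA per cell cannot be told apart. The number of arrays limits the precision, with a median SE per gene of 0.236 for linalool and 0.193 for each of the other groups.

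SLC7A11 had the widest range between groups among the members. The mean of its 2 probes was 1.16 and 1.48 on the linalool arrays, 0.30, −0.12 and 0.07 on the fenofibrate arrays, and 0.93, 0.74 and 0.51 on the lipid-loaded arrays. The 3 groups did not overlap. Group means were 1.32 ± 0.23 with linalool (SD, n = 2), 0.09 ± 0.21 with fenofibrate and 0.72 ± 0.21 in lipid-loaded cells (SD, n = 3 each). The linalool mean stands for a channel ratio of 2.49, the fenofibrate mean for 1.06 and the lipid-loaded mean for 1.65.

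The 2 SLC7A11 probes differed in size but not in the order of the group means. Probe PH_hs_0048259 gave 1.44 and 1.78 with linalool, 0.70, 0.47 and 0.03 with fenofibrate, and 1.64, 0.52 and 0.65 in lipid-loaded cells. Probe PH_hs_0027559 gave 0.87 and 1.19 with linalool, −0.09, −0.71 and 0.11 with fenofibrate, and 0.21, 0.95 and 0.37 in lipid-loaded cells. On each probe the linalool arrays lay above all fenofibrate arrays. Neither probe by itself separated linalool from lipid-loaded arrays, since 1 lipid-loaded array lay above the lower linalool array on each. The array was replicate 1 on the first probe named and replicate 2 on the other. Probe PH_hs_0027559 alone gave a fenofibrate mean of −0.23, of the opposite sign to the mean of both probes.

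**Figure D1:**
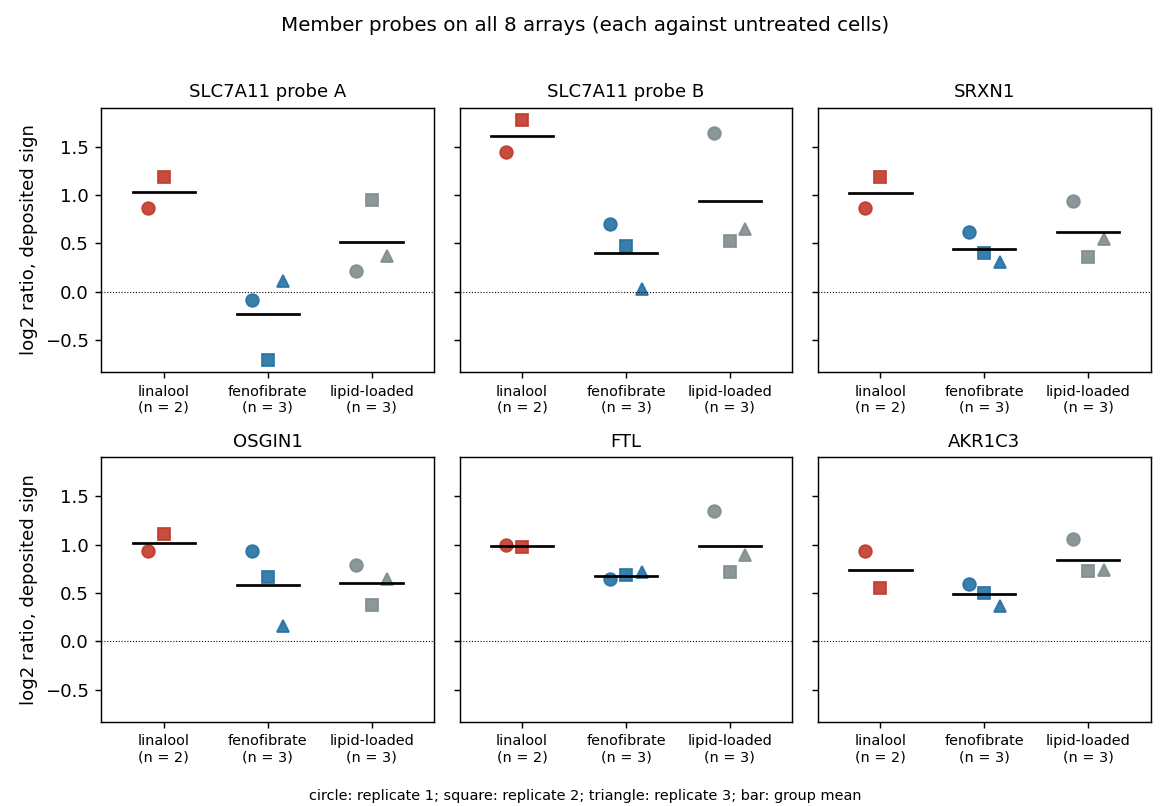
Log2 ratios (deposited sign, vertical axis) of the 6 member probes on the 2 linalool, 3 fenofibrate and 3 lipid-loaded arrays, each against untreated cells. Points are arrays, with 1 symbol per replicate number, and bars are group means. SLC7A11 probe A is PH_hs_0027559 and probe B is PH_hs_0048259; FTL stands between 0.64 and 0.71 on the fenofibrate arrays and at 0.72 or above on all others.

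SRXN1 stood at 0.87 and 1.18 on the linalool arrays, 0.62, 0.40 and 0.30 on the fenofibrate arrays, and 0.94, 0.36 and 0.55 on the lipid-loaded arrays. The linalool arrays were above all fenofibrate arrays, while lipid-loaded replicate 1 lay among the linalool values. Means were 1.02 ± 0.23 with linalool (SD, n = 2), 0.44 ± 0.16 with fenofibrate and 0.61 ± 0.29 in lipid-loaded cells (SD, n = 3 each).

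OSGIN1 was at 0.93 and 1.10 with linalool, at 0.93, 0.66 and 0.16 with fenofibrate, and at 0.79, 0.37 and 0.65 in lipid-loaded cells. The linalool arrays lay above the lipid-loaded ones, and fenofibrate replicate 1 was level with the lower of them. The fenofibrate values spread most, with replicate 3 lowest, and the group means were 1.02 ± 0.12 with linalool (SD, n = 2), 0.58 ± 0.39 with fenofibrate and 0.60 ± 0.21 in lipid-loaded cells (SD, n = 3 each). OSGIN2, its paralogue, did not share this pattern: it had −0.32 and −0.18 with linalool, −0.14, −0.78 and 0.60 with fenofibrate, and 0.13, −0.34 and 0.54 in lipid-loaded cells.

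FTL had the least spread within the compound groups. Its ratios were 0.99 and 0.98 with linalool, 0.64, 0.68 and 0.71 with fenofibrate, and 1.34, 0.72 and 0.89 in lipid-loaded cells. The fenofibrate arrays lay below every other array, though lipid-loaded replicate 2 was above the nearest of them by less than 0.01. Means were 0.98 ± 0.01 with linalool (SD, n = 2), 0.68 ± 0.03 with fenofibrate and 0.98 ± 0.32 in lipid-loaded cells (SD, n = 3 each). FTL has many processed pseudogenes in the human genome, and whether its probe separates them was not analysed here. FTH1, the heavy chain, was not measured by any annotated probe.

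AKR1C3 stood at 0.93 and 0.55 on the linalool arrays, at 0.59, 0.50 and 0.37 on the fenofibrate arrays, and at 1.06, 0.73 and 0.73 on the lipid-loaded arrays. Lipid-loaded arrays lay above all fenofibrate arrays, and the linalool pair had 1 array within the range of each. Means were 0.74 ± 0.27 with linalool (SD, n = 2), 0.49 ± 0.11 with fenofibrate and 0.84 ± 0.19 in lipid-loaded cells (SD, n = 3 each).

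The AKR1C enzymes are close copies of each other, and the probes could share transcripts. AKR1C1, which inactivates progesterone, had 3 probes, of which 1 had negative means. Probe PH_hs_0029660 averaged 1.09 with linalool, 0.38 with fenofibrate and 0.66 in lipid-loaded cells, an order like that of SLC7A11 and SRXN1. Probe PH_hs_0035466 averaged 0.73, 0.63 and 0.75 in those groups in the same order. Probe PH_hs_0029424 averaged −0.47 with linalool, −0.17 with fenofibrate and −0.45 in lipid-loaded cells. AKR1C2, a reductase of dihydrotestosterone, averaged −0.08 ± 0.05 with linalool (SD, n = 2), −0.09 ± 0.58 with fenofibrate and −0.51 ± 0.69 in lipid-loaded cells (SD, n = 3 each). AKR1C4, the form most typical of liver, averaged −0.06, −0.27 and −0.26 in the same order of groups. Its probes differed in sign with linalool, where PH_hs_0010556 averaged 0.10 and PH_hs_0043214 averaged −0.23. A positive ratio on all 8 arrays was thus seen for AKR1C3 and for the mean of the AKR1C1 probes, and not for AKR1C2 or AKR1C4.

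Because the arrays differed in their spread, each member was also placed among all genes of the same array. SLC7A11 lay at percentiles 99.6 and 99.9 on the linalool arrays, 63.5, 34.2 and 57.3 on the fenofibrate arrays, and 91.8, 93.0 and 79.2 on the lipid-loaded arrays. SRXN1 lay at 98.5 and 99.6 with linalool, at 92.3, 83.3 and 76.2 with fenofibrate, and at 92.2, 67.7 and 82.9 in lipid-loaded cells. On this scale, which multiplying all values of an array by a constant leaves unchanged, the linalool arrays of both genes lay above every other array. The spread of the other genes still sets the percentile of a given ratio. For SRXN1 the ratios themselves overlapped, with 0.94 on lipid-loaded replicate 1, the array of widest spread, against 0.87 on linalool replicate 1. OSGIN1 lay at 98.9 and 99.5 with linalool, 99.3, 96.9 and 65.0 with fenofibrate, and 83.6, 68.6 and 91.1 in lipid-loaded cells. FTL was at 99.2 and 99.1 with linalool, at 93.6, 97.1 and 93.6 with fenofibrate, and at 99.8, 92.3 and 99.1 in lipid-loaded cells. AKR1C3 was at 98.9 and 92.5 with linalool, at 90.1, 91.3 and 79.9 with fenofibrate, and at 97.1, 92.7 and 96.1 in lipid-loaded cells.

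**Figure D2:**
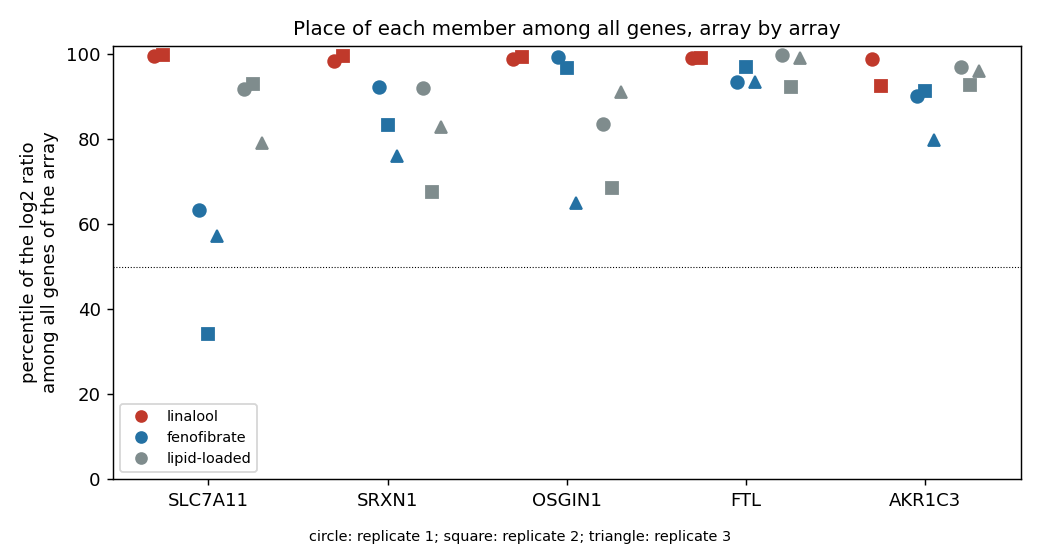
Percentile of each member's log2 ratio among all genes of its array (vertical axis, 0 to 100), with 1 point per array, coloured by group and with 1 symbol per replicate number, for linalool, fenofibrate and lipid-loaded cells from left to right. SLC7A11 lies at 99.6 or above on the linalool arrays and at 63.5 or below on the fenofibrate arrays.

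Differences between treated groups were taken from 1 limma fit to all genes and all 8 arrays. Linalool minus lipid-loaded was 0.59 (SE 0.26) for SLC7A11, 0.41 (SE 0.27) for SRXN1 and 0.42 (SE 0.29) for OSGIN1. It was −0.0010 (SE 0.26) for FTL and −0.10 (SE 0.25) for AKR1C3. The first 3 genes thus had larger linalool than lipid-loaded means, while for FTL and AKR1C3 the difference was smaller than its SE as deposited. Groups were apart with linalool above for 2 of the 5 members, SLC7A11 and OSGIN1, against 12.7% of all genes.

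As deposited, fenofibrate minus lipid-loaded was negative for all 5 members, though with quantile normalization SRXN1 turned to 0.02 and OSGIN1 to 0.21. The deposited values were −0.64 (SE 0.23) for SLC7A11, −0.17 (SE 0.24) for SRXN1, −0.02 (SE 0.26) for OSGIN1, −0.31 (SE 0.23) for FTL and −0.35 (SE 0.23) for AKR1C3. Of the 5, 3 had all fenofibrate arrays below all lipid-loaded arrays (SLC7A11, FTL and AKR1C3), against 12.4% of all genes. Linalool minus fenofibrate was positive for all 5. It was 1.23 (SE 0.26) for SLC7A11, 0.58 (SE 0.27) for SRXN1, 0.43 (SE 0.29) for OSGIN1, 0.30 (SE 0.26) for FTL and 0.25 (SE 0.25) for AKR1C3. SLC7A11, SRXN1 and FTL had all linalool arrays above all fenofibrate arrays, 3 of 5 members against 8.86% of all genes. These comparisons share arrays, and the members were picked from the same ratios, so nothing is read from these counts.

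**Figure D3:**
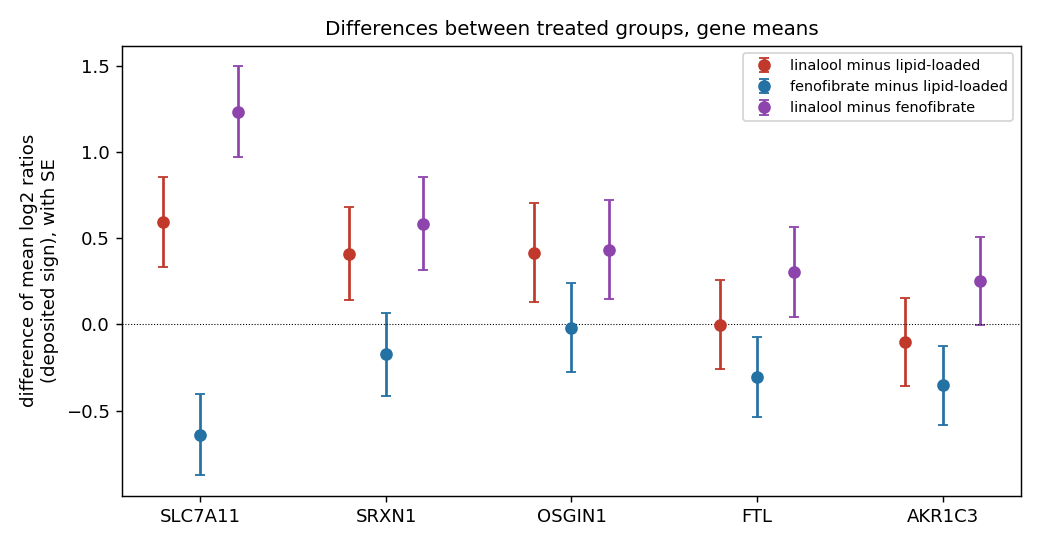
Differences of mean log2 ratios between treated groups (vertical axis, deposited sign) for the 5 members, as linalool minus lipid-loaded, fenofibrate minus lipid-loaded and linalool minus fenofibrate. Points are fitted differences and bars are SE from the limma fit; linalool minus fenofibrate lies above 0 for all 5, at 1.23 for SLC7A11 and 0.25 for AKR1C3.

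The size of these differences went with the scaling of the arrays. After scaling all arrays to an equal spread, linalool minus lipid-loaded was 1.06 for SLC7A11, 0.79 for SRXN1, 0.78 for OSGIN1, 0.45 for FTL and 0.24 for AKR1C3, and fenofibrate minus lipid-loaded was −0.50 for SLC7A11, −0.0030 for SRXN1, 0.15 for OSGIN1, −0.01 for FTL and −0.13 for AKR1C3. Of the values given by group or difference, the sign turned with this scaling for linalool minus lipid-loaded of FTL and AKR1C3 and for fenofibrate minus lipid-loaded of OSGIN1. Without fenofibrate replicate 3, the fenofibrate means were 0.09 for SLC7A11, 0.51 for SRXN1, 0.80 for OSGIN1, 0.66 for FTL and 0.55 for AKR1C3. Fenofibrate minus lipid-loaded was then 0.20 for OSGIN1 and stayed negative for the other 4 members, and linalool minus fenofibrate was 0.22 for OSGIN1.

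In the limma fit over all genes, lipid-loaded against untreated cells gave positive calls for 5 of 5 members at a Benjamini-Hochberg adjusted p under 0.05, against 24.1% of all genes called positive, 10.7% called negative and 34.8% called in all. Every array was positive for 5 of 5 members with linalool, against 38.6% of all genes, for 4 of 5 with fenofibrate (all but SLC7A11), against 21.5%, and for 5 of 5 in lipid-loaded cells, against 38.3%. The member calls rested on single arrays and on the processing. After scaling all arrays to an equal spread, and also without lipid-loaded replicate 1, 0 of 5 were called. Without lipid-loaded replicate 2 it was 3 of 5 (not SLC7A11 or OSGIN1), and without replicate 3 also 3 (not SRXN1 or OSGIN1). With quantile normalization it was 4, all but OSGIN1, and with 1 probe per gene 4, all but SLC7A11. Since these ratios chose the members, nothing is read from the counts. As deposited, no member was called with linalool or fenofibrate against untreated cells, or in a difference between treated groups, where 0% of genes were called in each comparison. For linalool against untreated cells, 4 of 5 members (all but AKR1C3) were called after scaling all arrays to an equal spread, and the same 4 with array weights. At an unadjusted p under 0.05 limma gave 2326 of 18819 genes for linalool and 3410 for fenofibrate against untreated cells, 2176 for linalool minus lipid-loaded, 1934 for fenofibrate minus lipid-loaded and 944 for linalool minus fenofibrate.

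Genes with the most similar ratios over the 8 arrays were found by their root mean square difference from each member, among 18818 genes. For SLC7A11 they were GCNT3, a mucin-type glycosyltransferase, at 0.215 and GCKR, the regulator of glucokinase, at 0.264, where the median gene was at 0.903. For SRXN1 they were AKR1B15, an aldo-keto reductase, at 0.107 and SH3BGRL3 at 0.110. AKR1B15 was also near OSGIN1, at 0.160, after the signalling adaptor SHC1 at 0.154. AKR1B15 averaged 1.08 ± 0.16 with linalool (SD, n = 2), 0.47 ± 0.21 with fenofibrate and 0.74 ± 0.23 in lipid-loaded cells (SD, n = 3 each). It is a close copy of AKR1B10, a known NRF2 target that no annotated probe measured here, so its probe could also read AKR1B10. The genes nearest to FTL were PSAT1 of serine synthesis at 0.0827 and TXN, thioredoxin, at 0.116. For AKR1C3 they were the mitochondrial ribosomal protein DAP3 at 0.0822 and the ribosome assembly factor RSL24D1 at 0.0956. Among the members, SRXN1 and OSGIN1 were the closest pair at 0.169, and SLC7A11 and FTL the farthest apart at 0.470.

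The rest of the pathway was followed through 7 lists of other genes by role, with 80 of 91 listed genes measured. The lists were written with earlier results of these data known. Their counts beside all genes, here and list by list below, are therefore a description and no independent test. In lipid-loaded against untreated cells, 53 of the 80 were called positive and 2 negative, or 68.8% against 34.8% of all genes, with a median ratio of 0.64 against −0.0032 over all genes. The count rested on the arrays. It was 0 without lipid-loaded replicate 1, 28 without replicate 2 and 0 after scaling all arrays to an equal spread. With linalool 68 of the 80 had a positive ratio, against 10212 of all 18819 genes (median 0.40, against 0.04 over all genes). With fenofibrate it was also 68 of the 80, against 9936 of 18819 (median 0.34, against 0.02). By limma 0 of the 80 were called in either group. At an unadjusted p under 0.05 there were 39 of the 80 in each, against 2326 of 18819 genes with linalool and 3410 with fenofibrate. None of the 80 was called in a difference between treated groups. At an unadjusted p under 0.05 limma gave 6 of the 80 for linalool minus lipid-loaded, against 2176 of 18819 genes. It gave 7 for fenofibrate minus lipid-loaded, against 1934 of all genes, and 3 for linalool minus fenofibrate, against 944.

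**Figure D4:**
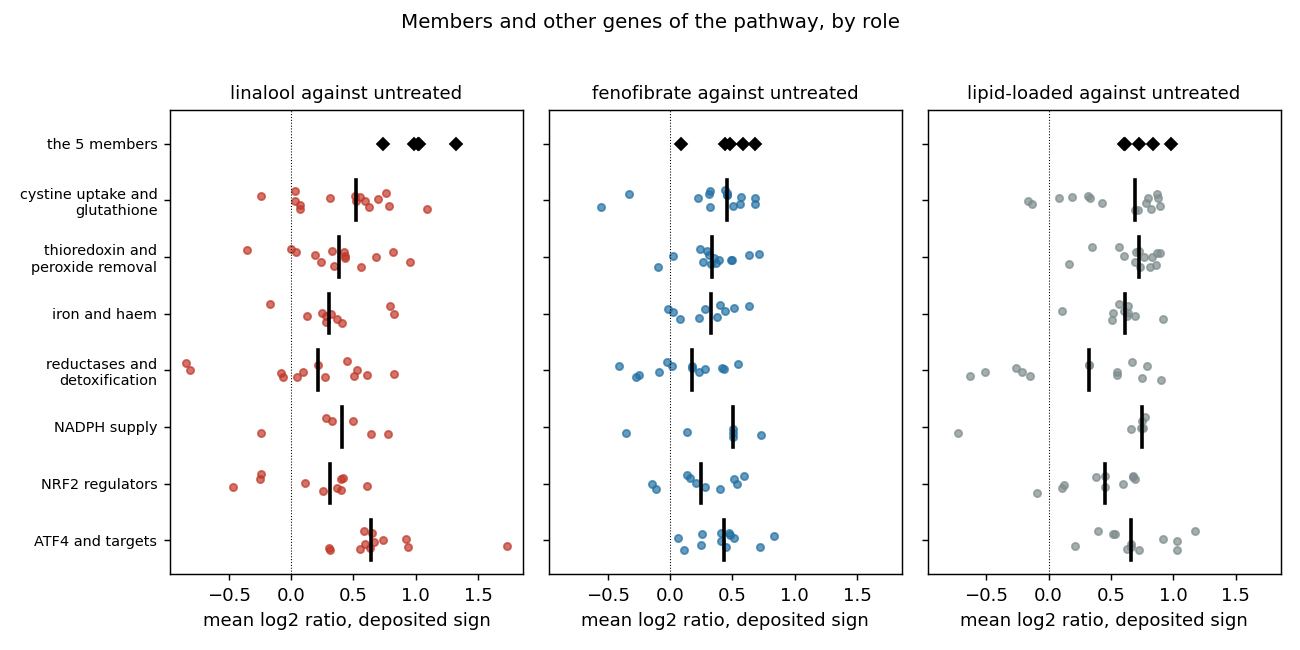
Mean log2 ratio (horizontal axis, deposited sign) of each gene of the 7 role lists, by group, for linalool, fenofibrate and lipid-loaded cells from left to right. Dots are genes, black bars list medians and black diamonds the 5 members; medians as deposited are positive in every list and group, as they are under the 3 other scalings tried, and run from 0.18 for reductases with fenofibrate to 0.75 for NADPH supply in lipid-loaded cells.

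Cystine uptake and glutathione genes had 8 positive calls among 15 measured in lipid-loaded cells, against 24.1% of all genes. The list medians were 0.52 with linalool, 0.45 with fenofibrate and 0.69 in lipid-loaded cells. SLC3A2, the heavy chain that carries SLC7A11 to the membrane, averaged 0.51 ± 0.13 with linalool (SD, n = 2), 0.45 ± 0.13 with fenofibrate and 0.88 ± 0.49 in lipid-loaded cells (SD, n = 3 each), where limma gave adjusted p = 0.0137. The order of its group means was not that of SLC7A11, but its lipid-loaded arrays, from 0.32 to 1.20, spanned both linalool arrays. Linalool minus lipid-loaded was −0.37 (SE 0.30) for SLC3A2. GCLM, the modifier subunit of the enzyme that starts glutathione synthesis, averaged 0.70 with linalool, 0.33 with fenofibrate and 0.32 in lipid-loaded cells (adjusted p = 0.129). Its probes differed in size, since PH_hs_0023764 averaged 1.07 with linalool and 0.51 in lipid-loaded cells and PH_hs_0047542 averaged 0.33 and 0.13. The latter was negative on fenofibrate replicate 2 (−0.42) and lipid-loaded replicate 1 (−0.36), where PH_hs_0023764 was positive. GCLC, the catalytic subunit, had negative means of −0.24 with linalool, −0.56 with fenofibrate and −0.16 in lipid-loaded cells (adjusted p = 0.537). Glutathione reductase, GSR, was at 0.03, 0.31 and 0.19 in the same order, and did not pass in lipid-loaded cells (adjusted p = 0.410).

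Thioredoxin and peroxide removal genes, the setting of SRXN1, had 12 positive calls among 14 in lipid-loaded cells, against 24.1% of all genes. List medians were 0.39 with linalool, 0.34 with fenofibrate and 0.73 in lipid-loaded cells. TXN averaged 0.95 ± 0.11 with linalool (SD, n = 2), 0.72 ± 0.17 with fenofibrate and 0.87 ± 0.33 in lipid-loaded cells (SD, n = 3 each, limma adjusted p = 0.0135). TXNRD1, the reductase of thioredoxin, averaged 0.82 with linalool, 0.30 with fenofibrate and 0.70 in lipid-loaded cells (adjusted p = 0.0152), and its linalool arrays at 0.76 and 0.87 lay above all fenofibrate arrays. PRDX1, a peroxiredoxin that SRXN1 repairs, averaged −0.0010 with linalool, 0.24 with fenofibrate and 0.35 in lipid-loaded cells (adjusted p = 0.136). One of its probes, PH_hs_0043518, averaged 0.51, 0.73 and 0.94 in that order, and the other, PH_hs_0029347, averaged −0.51, −0.24 and −0.24.

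Iron and haem genes, the setting of FTL, had 8 positive calls among 10 in lipid-loaded cells, against 24.1% of all genes. Their medians were 0.30 with linalool, 0.33 with fenofibrate and 0.62 in lipid-loaded cells. HMOX1, the haem oxygenase that frees iron from haem, had 0.26 and 0.48 with linalool, 0.75, −0.09 and −0.41 with fenofibrate, and 1.14, 0.62 and 0.99 in lipid-loaded cells (limma adjusted p = 0.0150). Its lipid-loaded arrays lay above both linalool arrays, so the order was not that of SLC7A11. Of the 6 NADPH supply genes measured, 5 were called positive and 1 negative, against 24.1% and 10.7% of all genes. PGD of the pentose phosphate pathway was at 0.49 with linalool, 0.51 with fenofibrate and 0.76 in lipid-loaded cells (limma adjusted p = 0.0135). The negative call was ME1, malic enzyme, at −0.24, −0.35 and −0.72 in that order (adjusted p = 0.0280 in lipid-loaded cells), which was named after its value had been seen.

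Of 13 reductases and other detoxifying enzymes, the setting of AKR1C3, 6 were called positive and 1 negative, against 24.1% and 10.7% of all genes. The negative call was NQO1, the quinone reductase that is widely used as a marker of NRF2 activity. NQO1 had −1.22 and −0.46 with linalool, −0.43, −0.58 and −0.20 with fenofibrate, and −0.51, −0.96 and −0.41 in lipid-loaded cells (limma adjusted p = 0.0290). It was thus negative on all 8 arrays, on its 1 probe, while SRXN1, OSGIN1, FTL and AKR1C3 were positive on all of them. List medians were 0.22 with linalool, 0.18 with fenofibrate and 0.32 in lipid-loaded cells.

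Among regulators, 5 of 10 were called in lipid-loaded cells, all positive, against 24.1% of all genes called positive. NFE2L2 itself averaged 0.40 ± 0.03 with linalool (SD, n = 2), 0.54 ± 0.07 with fenofibrate and 0.67 ± 0.28 in lipid-loaded cells (SD, n = 3 each, adjusted p = 0.0151). KEAP1 averaged 0.40, 0.13 and 0.68 in the same order (adjusted p = 0.0154 in lipid-loaded cells). SQSTM1, the autophagy receptor that can draw KEAP1 away from NRF2, averaged 0.61, 0.41 and 0.45 (adjusted p = 0.0393 in lipid-loaded cells). The linalool means of NFE2L2 and KEAP1 lay below their lipid-loaded means, unlike those of SLC7A11, SRXN1 and OSGIN1. The differences were −0.27 (SE 0.25) for NFE2L2 and −0.27 (SE 0.26) for KEAP1, where the median over all genes was −0.06. Among all genes of a group, NFE2L2 lay at percentile 87.6 with linalool and 89.2 in lipid-loaded cells, and KEAP1 at 87.5 and 89.3. On that scale the groups were thus nearly level.

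ATF4 and its targets, the other known input to SLC7A11, had 9 positive calls among 12 in lipid-loaded cells, against 24.1% of all genes. Ratios were positive for 12 of 12 in each group. Of all 18819 genes, 10212 were positive with linalool, 9936 with fenofibrate and 9384 in lipid-loaded cells. ASNS, asparagine synthetase, had 1.74 and 1.73 with linalool, 0.84, 0.84 and −0.45 with fenofibrate, and 1.55, 1.09 and 0.89 in lipid-loaded cells (adjusted p = 0.0135). Its linalool arrays lay above all others, as those of the SLC7A11 gene mean did. Of the 12 listed genes, ASNS was the only 1 with both linalool arrays above all lipid-loaded arrays, against 12.7% of all genes. For 8 of the 12 the linalool mean lay below the lipid-loaded mean, against 10370 of all 18819 genes. The median difference of the list was −0.08, close to the −0.06 over all genes. ATF4 averaged 0.32 with linalool, 0.48 with fenofibrate and 0.52 in lipid-loaded cells (adjusted p = 0.0335). Its probes differed, since PH_hs_0049589 averaged 0.61, 0.83 and 0.85 in that order and PH_hs_0027945 averaged 0.02, 0.12 and 0.18. Medians of the list were 0.64 with linalool, 0.43 with fenofibrate and 0.66 in lipid-loaded cells.

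Marker genes of cell types were read on the same scale. The 8 hepatocyte markers ranged from −0.18 to 0.50 with linalool, from −0.63 to 0.80 with fenofibrate and from 0.60 to 0.99 in lipid-loaded cells, with 7 positive calls in the last, or 87.5% against 34.8% of all genes called. The 12 markers of endothelial, stromal and blood cells ranged from −0.68 to 0.43 with linalool, from −0.48 to 0.26 with fenofibrate and from −1.11 to 0.81 in lipid-loaded cells, with 1 positive and 4 negative calls, or 41.7%. With linalool or fenofibrate 0 of these markers were called, as for all genes. Their part in the ratios of the 5 members was not tested.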

How the data were processed

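RNA of 8 treated HepG2 samples was hybridised against untreated HepG2 RNA on 8 arrays with 2 colours. Per the labels' protocols, 8 µg of RNA was copied from oligo(dT) primers and labelled with Cy3 or Cy5. The authors deposited 1 table of processed log2 ratios for 29187 probes, with 4 missing values. How the arrays were scanned, background-corrected and normalized is not given in the sources used here. Base 2 was read from the values: on each array, subtracting a single constant turned 100% of the values from −1.5 to 0.5 into log2 of a 3-decimal ratio (tolerance 1e-04), against at most 27.0% with the sign turned. Column means were within 5.93e-05 of 0 and medians from −0.012 to 0.0865, so scale and centring are known and direction is not.

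Of the probes, 25053 had 1 symbol in the platform annotation, 0 several and 4134 none, and 24981 were matched to the RefSeq gene table, with 0 symbols changed. Probes of a gene were averaged, giving 18821 genes, of which 18819 entered the test. A single limma fit (version 3.58.1, R 4.3.3, lmFit and eBayes, two-sided, Benjamini-Hochberg over all genes) took all 8 arrays, with 1 coefficient per group. For comparisons with untreated cells the test was of a ratio other than 0. Any spread among control samples enters it only as part of the ratios and could not be estimated separately. The labels do not say that replicates came from separate cultures, so the p-values reflect only how far these samples differ, and that spread may be technical. The fit was also run on simulated ratios of 18819 genes, with independent normal noise of the same SD for all genes and arrays. In 200 genes the same change was added on all 8 arrays. For lipid-loaded against untreated, 87.0% of log2 changes of 1 and 100% of changes of 2 were recovered, and 7.43% of the calls were false. The simulation had no genes or arrays of unequal spread, so these rates cannot be carried over to the real arrays.

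The members and lists were chosen with earlier results of these data known. Named were the 5 members, 22 pathway genes set in advance (19 measured), list genes called between treated groups (0) and the 2 genes nearest to each member. Alternatives were quantile normalization, scaling to the same spread, median centring, array weights, 1 probe per gene, a replicate block and leaving out each array. Figures were drawn with matplotlib 3.10.9.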

Additional observations from a re-analysis of the deposited data

How the results depend on the processing

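Of 30 member values (5 genes in 6 comparisons) under 14 alternatives, 400 of 420 moved by less than 1 SD. Another sign than reported was found for 17, and none of these was a called value. Many of the 420 could not move. Leaving out an array of a group outside a comparison does not change its value. Using 1 probe per gene changes nothing for the 4 members with 1 probe. The 400 are therefore no measure of stability by themselves. The number of genes called rested on single arrays and on scaling. For lipid-loaded against untreated cells, 6555 genes were called, against 2877 with quantile normalization and, after scaling to an equal spread, 0 (smallest adjusted p 0.0693, 6291 at an unadjusted p under 0.05), and 0 to 7772 on leaving out 1 array. Without lipid-loaded replicate 1 the count was 0 (smallest adjusted p 0.0987, 5898 at an unadjusted p under 0.05), without replicate 2 it was 2010 and without replicate 3 it was 3087. Other pathway genes called there numbered 55, against 0 with the arrays scaled (54 at an unadjusted p under 0.05) and 0 to 58 on leaving out 1 array. For linalool against untreated cells, 0 genes were called, against 119 with the arrays scaled, 99 with array weights, 1 with 1 probe per gene and 0 to 6 on leaving out 1 array (6 without fenofibrate replicate 3, 4 and 2 without linalool replicate 1 or 2). Pathway genes were 0, against 6 with the arrays scaled, 4 with array weights and 0 to 1 on leaving out 1 array (1 without fenofibrate replicate 3). For fenofibrate against untreated cells the 0 genes called became 1 with array weights, 2 with 1 probe per gene and 0 to 1 on leaving out 1 array (1 without fenofibrate replicate 3). For linalool minus lipid-loaded and linalool minus fenofibrate, leaving out 1 array gave 0 to 1 and 0 to 3 genes, the most without linalool replicate 1 in both, and linalool minus fenofibrate gave 1 without linalool replicate 2. The causes were not tested.

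Whether replicate numbers pair the arrays could not be settled. Deviations from group means correlated at −0.021 to 0.140 for equal numbers and at −0.141 to 0.0664 for unequal ones. With 2 or 3 arrays per group the deviations sum to 0, so these values depend on each other and cannot exclude pairing. With the replicate block, 6784 genes were called for lipid-loaded against untreated cells and 55 of the other pathway genes, and 0 of either in the other comparisons, so it changed no call count by over 1.5 times.

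Ratios without signal or background values cannot show which probes were dim, and 2 linalool arrays limit every linalool value.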
